A study of Mus musculus with 12 samples.

Results

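The expression of 8 regulators of lateral plate and intermediate mesoderm was followed in mouse gastruloids: *Foxf1*, *Hand1*, *Hand2*, *Isl1*, *Tbx5*, *Osr1*, *Pax2* and *Pax8*. The 8 genes were chosen by name as transcription factors of these tissues, and their levels are the summed counts of all RefSeq transcripts that carry the gene symbol. They are 8 of the 38911 genes in the count tables. All 8 had a count in at least 1 library, and 7 of them passed the low-count filter that left 16966 genes to test. *Pax8* did not pass it. On GRCm38.p6, *Foxf1* lies at chr8:121084386-121088154, *Hand1* at chr11:57828713-57832147, *Hand2* at chr8:57320983-57324517 and *Isl1* at chr13:116298270-116309688. *Tbx5* lies at chr5:119796514-119885220, *Osr1* at chr12:9574442-9581500, *Pax2* at chr19:44746601-44838269 and *Pax8* at chr2:24420551-24475599. These are whole gene spans of protein-coding genes, and the counts come from their exons.

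The mesoderm that leaves the primitive streak is divided along the mediolateral axis of the embryo. Cells next to the midline become paraxial mesoderm and form somites, the intermediate mesoderm beside them forms the kidney and its ducts, and the lateral plate forms the heart, the limb buds and the walls of the gut and body. BMP signalling from the lateral side favours lateral fates, and its antagonists favour medial ones. *Osr1* is one of the earliest genes of intermediate and lateral mesoderm, *Pax2* and *Pax8* act in the nephric lineage, *Foxf1* marks splanchnic mesoderm, and *Hand1*, *Hand2*, *Isl1* and *Tbx5* act in the heart fields and limb buds.

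Gastruloids are aggregates of embryonic stem cells that form an anteroposterior axis in culture, here from 200 cells of the mouse line E14TG2a cultured in 2i and LIF. PolyA RNA was sequenced on day 4 after a treatment from day 3 to day 4. The groups were 0× glucose (0 mM), 1× glucose (21.25 mM, the control), 3× glucose (63.75 mM) and 5 mM 2-deoxy-D-glucose (2-DG) added to 1× glucose (21.25 mM). 2-DG is a glucose analog that competes with glucose for hexokinase. Each group had 3 libraries, 1 from each of the embryonic stem cell passages 13, 15 and 16, and all 12 libraries share 1 parental line. Each library pooled gastruloids, and with 1 library per passage and treatment, the passage and the round of culture cannot be told apart. Libraries held 31902471 to 45956080 counts. Levels are given as CPM, counts scaled to the TMM-adjusted total of each library. In polyA RNA of whole gastruloids, fewer cells of a type and less RNA per cell cannot be told apart.

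All 8 genes were low in this material. Their levels summed to 9.11 to 30.0 CPM in a library, whereas 16 presomitic and paraxial mesoderm genes summed to between 1388 and 3140 CPM. Another 24 lateral plate, splanchnic, limb and heart field genes summed to 94.0 to 314 CPM. The sum of 20 other intermediate mesoderm and early kidney genes was 345 to 931 CPM. These sums are not scaled for gene number or length. Per kilobase of the longest annotated transcript, the order in 1× glucose was *Foxf1* (2.17 ± 1.12 CPM per kb, SD, n = 3), *Isl1* (1.89 ± 1.03), *Osr1* (1.65 ± 1.10), *Pax2* (0.795 ± 0.210), *Hand2* (0.197 ± 0.060), *Tbx5* (0.126 ± 0.0070), *Hand1* (0.109 ± 0.0050) and *Pax8* (0.023 ± 0.021). The ranges of *Foxf1*, *Isl1*, *Osr1* and *Pax2* overlapped, as did those of *Hand2* and *Tbx5*. *Pax2* was above *Hand2*, and *Tbx5* above *Hand1*, in every 1× glucose library. The 3 genes with the highest means were also those with the widest spread between passages in the control.

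**Figure D1:**
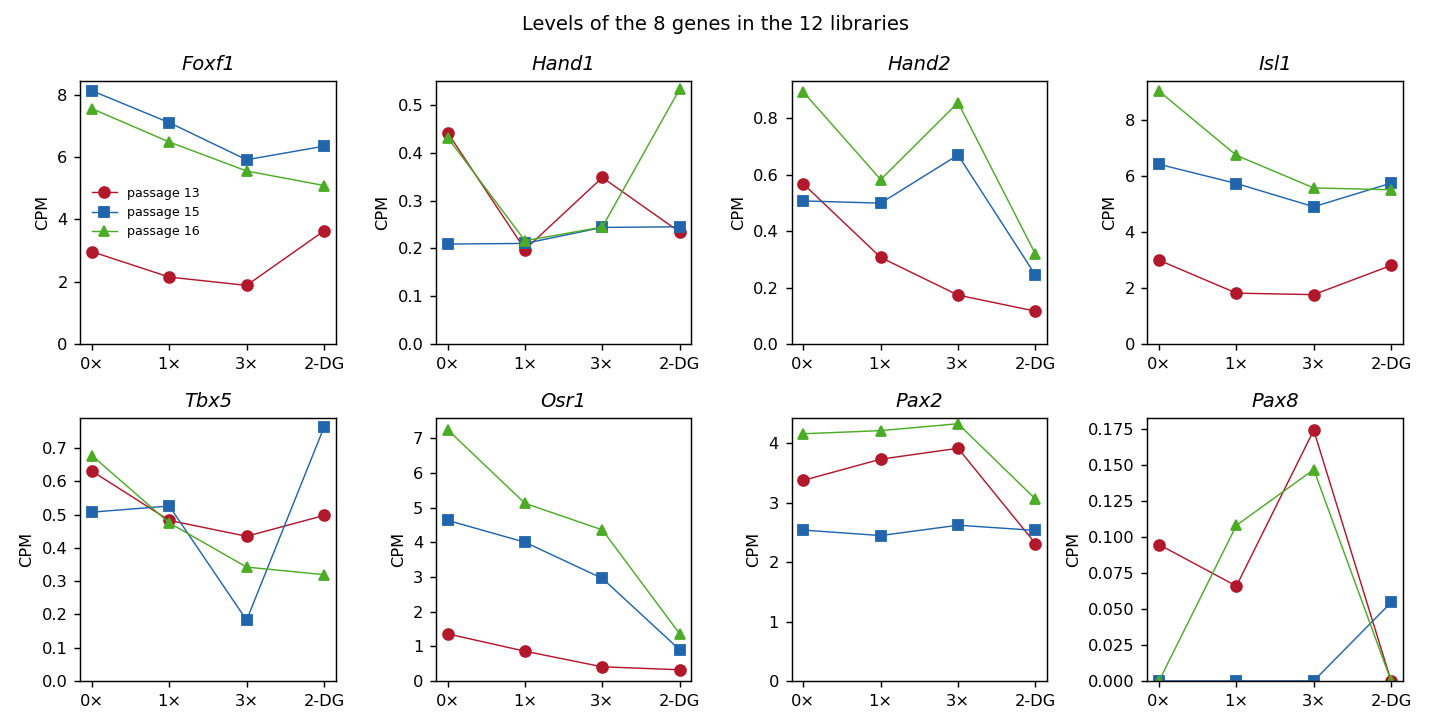
CPM (TMM-scaled, linear axis from 0) of the 8 genes in the 12 libraries, by treatment on the horizontal axis, with a line and marker for each stem cell passage. For *Foxf1*, *Isl1* and *Osr1* the passage 13 line lies below the lines of passages 15 and 16 in every treatment, and for *Osr1* the 2-DG point is the lowest of each line.

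2-DG was compared with 1× glucose to ask how the regulators of these tissues stood under this glucose analog. *Osr1*, a zinc finger factor needed for kidney and heart development, was at 0.322, 0.899 and 1.36 CPM in the 2-DG libraries of passages 13, 15 and 16. In 1× glucose it was at 0.856, 4.00 and 5.12 CPM in the same passages. Within each passage the 2-DG library was lower, by 2.66-, 4.45- and 3.77-fold, although the groups overlapped because the 1× glucose library of passage 13 was below the 2-DG libraries of passages 15 and 16. The group means were 0.860 ± 0.519 CPM (SD, n = 3) in 2-DG and 3.33 ± 2.21 CPM in 1× glucose. The log2 fold change was -1.94 (SE 0.91), which did not pass edgeR's quasi-likelihood test when passage was left out of the model (adjusted p = 0.173). It was lower in 2-DG under all 12 alternatives. With passage as a block the log2 fold change was -1.92 (SE 0.20), and *Osr1* fell 3.79-fold (edgeR adjusted p = 5.0e-05). With all 4 libraries of passage 13 left out it was also called without the block, at a log2 fold change of -2.01 (edgeR adjusted p = 0.0045). That fit called 3417 of 17036 genes.

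The same 2-DG libraries were also set against 0× glucose, so that the groups differ both in 2-DG and in glucose. *Osr1* in 0× glucose was at 1.36, 4.63 and 7.24 CPM in passages 13, 15 and 16. Each of these was above the 2-DG library of its passage, by 4.21-, 5.15- and 5.33-fold. The log2 fold change of 2-DG against 0× glucose was -2.35 (SE 0.92, edgeR adjusted p = 0.101), and with passage as a block -2.35 (SE 0.20, adjusted p = 1.3e-05). DESeq2, also without passage, called this difference (adjusted p = 0.0244) and not that against 1× glucose (adjusted p = 0.0766). In 3× glucose *Osr1* was at 0.406, 2.96 and 4.35 CPM, again above 2-DG in each passage, by 1.26-, 3.29- and 3.20-fold. The passage 13 pair of 3× glucose and 2-DG rests on 14 and 11 counts.

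Of the 7 genes tested, 0 were called between 2-DG and 1× glucose by edgeR without passage, and DESeq2 also called 0. Over all genes edgeR called 17.6% in this comparison, and DESeq2 called 3686 of 16966. None of the 7 had an unadjusted edgeR p under 0.05, where 31.7% of all genes did. With the block 1 of the 7, *Osr1*, was called, against 41.3% of all genes. Between 2-DG and 0× glucose edgeR called 0 of 7 where it called 18.9% of all genes, and 2 had an unadjusted edgeR p under 0.05 (33% of all genes). DESeq2 called 1 of the 7 and 3866 of all 16966 genes. With the block 2 of 7, *Osr1* and *Hand2*, were called and both were lower in 2-DG, against 43.1% of all genes called and 21.5% called lower. The median log2 fold change of the 7 was -0.060 against 1× glucose and -0.35 against 0× glucose, and that of all genes was 0.0023 and 0.00049.

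**Figure D2:**
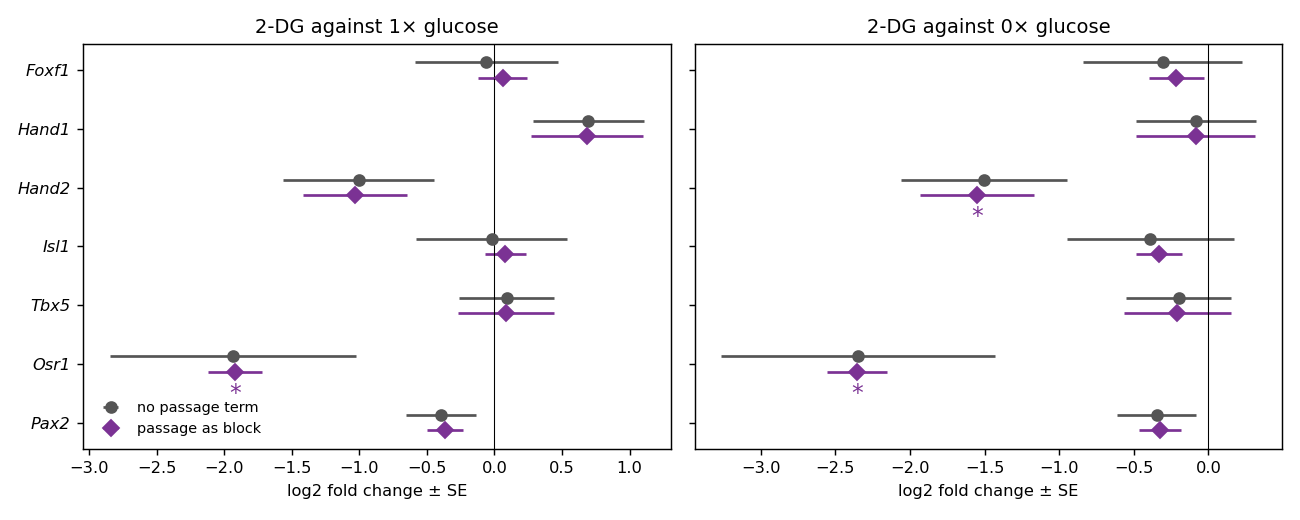
Log2 fold changes (points) with standard errors (bars) of the 7 tested genes for 2-DG against 1× glucose (left) and 0× glucose (right), fitted without passage (circles) and with passage as a block (diamonds). Asterisks mark adjusted p under 0.05 in the blocked fit, reached by *Osr1* in both panels and *Hand2* on the right, where the bars of *Osr1* shrink from 0.92 to 0.20.

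*Pax2*, a paired box factor of the nephric duct and also of the midbrain-hindbrain boundary, was at 2.31, 2.53 and 3.06 CPM in 2-DG and at 3.73, 2.45 and 4.21 CPM in 1× glucose, in passages 13, 15 and 16. It was lower in 2-DG in passages 13 and 16 and about level in passage 15, and the groups overlapped. The log2 fold change was -0.39 (SE 0.26, edgeR adjusted p = 0.337), and -0.37 (SE 0.14, adjusted p = 0.0517) with the block. The counts of *Pax2* were spread over 10 transcripts, each at 0 in 2 to 11 of the 12 libraries. The transcript with most counts held 30.0% of them, and taken alone it gave a log2 fold change of 2.05 (edgeR adjusted p = 0.503), so the direction for *Pax2* rests on the sum over transcripts. Where *Pax2* RNA came from was not tested. Of 12 midbrain-hindbrain and placode genes, which summed to 259 to 383 CPM across libraries, 8 were tested and 2 called in 2-DG (2 rose and 3 fell with the block). *Dlx5*, a placode homeobox gene, was higher (log2 fold change 1.35, edgeR adjusted p = 0.0463), and *Fgf17*, a ligand of the midbrain-hindbrain boundary and tail bud, was lower (-2.74, adjusted p = 0.0057).

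*Pax8*, the partner of *Pax2* in the early nephric lineage, had 25 counts in all libraries together. It was at 0 in 6 of the 12 libraries and at 2 to 6 counts in the other 6. For passages 13, 15 and 16, the 0× glucose libraries held 3, 0 and 0 counts and those of 1× glucose 3, 0 and 5. The 3× glucose libraries held 6, 0 and 6 counts, and the 2-DG libraries 0, 2 and 0. A count of 0 allows up to 3 counts in a library, so no difference was detectable at this depth. Fitted without the filter, *Pax8* was called in no comparison (edgeR adjusted p 0.576 to 1).

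*Hand2*, a basic helix-loop-helix factor of heart and limb mesenchyme, had few counts, 4 to 35 a library. It was at 0.117, 0.245 and 0.320 CPM in 2-DG and at 0.307, 0.50 and 0.583 CPM in 1× glucose, in passages 13, 15 and 16. The 2-DG library was the lower in each passage, by 2.62-, 2.04- and 1.83-fold, and the ranges overlapped only between the passage 13 library in 1× glucose and the passage 16 library in 2-DG. The log2 fold change was -1.005 (SE 0.56, edgeR adjusted p = 0.252), and with the block -1.03 (SE 0.39, adjusted p = 0.0524). In 0× glucose *Hand2* was at 0.568, 0.508 and 0.894 CPM, all above every 2-DG library. Against 0× glucose the log2 fold change was -1.50 (SE 0.56, adjusted p = 0.0847), and with the block it fell by 1.55 on the log2 scale (SE 0.38, edgeR adjusted p = 0.0076). *Hand2* was at 0.174, 0.670 and 0.856 CPM in 3× glucose. It was lower in 2-DG than in each of the other treatments in all 3 passages. The passage 13 pair of 3× glucose and 2-DG rests on 6 and 4 counts.

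The 250 bases before the annotated start are given for *Hand2* and *Isl1*, the lateral plate members with an entry in the RefSeq promoter table (GRCm38.p6), 5′ to 3′ on the strand of the gene. *Hand2* (chr8:57320733-57320982, plus strand) and *Isl1* (chr13:116309689-116309938, minus strand) were searched on both strands for 4 motifs, which were picked with the sequences in view. Capitals mark the matches. The GATA factor motif AGATAA, which reads TTATCT on the other strand, is in 9.99% of the 32851 RefSeq promoters cut to this length. The Hand-type E-box CATCTG, or CAGATG on the other strand, is in 14.4%. The CCAAT box, read as ATTGG on the other strand, is in 33.8%, and the T-box motif AGGTGT, or ACACCT on the other strand, is in 11.8%.
Hand2: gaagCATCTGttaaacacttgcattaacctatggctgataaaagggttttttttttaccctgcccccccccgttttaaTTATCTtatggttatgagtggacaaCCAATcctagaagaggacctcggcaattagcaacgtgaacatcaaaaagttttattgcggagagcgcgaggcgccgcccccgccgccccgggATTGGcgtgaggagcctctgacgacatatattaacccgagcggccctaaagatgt
Isl1: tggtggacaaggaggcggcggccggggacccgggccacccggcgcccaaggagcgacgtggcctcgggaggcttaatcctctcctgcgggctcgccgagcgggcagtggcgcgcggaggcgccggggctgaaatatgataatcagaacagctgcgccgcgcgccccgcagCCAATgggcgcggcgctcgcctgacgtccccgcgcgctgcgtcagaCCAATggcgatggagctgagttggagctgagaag

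*Hand2* held 1 match to AGATAA, 1 E-box and 2 CCAAT boxes in this stretch, and *Isl1* held 2 CCAAT boxes. Neither held the T-box motif AGGTGT. Other forms of these motifs were not searched for, and TGATAA, which is in both sequences, is left unmarked. Each match is a string of letters and was not tested for binding.

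*Hand1*, the paralog of *Hand2* in extraembryonic and cardiac mesoderm, had few counts, 7 to 20 a library. It was at 0.234, 0.245 and 0.533 CPM in 2-DG and at 0.198, 0.210 and 0.216 CPM in 1× glucose, in passages 13, 15 and 16. Every 2-DG value was above every 1× glucose value, with counts of 8, 9 and 20 against 9, 8 and 10. The log2 fold change was 0.70 (SE 0.41, edgeR adjusted p = 0.284), and with the block the adjusted p was 0.217. *Tbx5*, a T-box factor of the first heart field and forelimb, had 6 to 28 counts a library. It was at 0.498, 0.763 and 0.320 CPM in 2-DG and at 0.483, 0.526 and 0.475 CPM in 1× glucose, which overlapped (log2 fold change 0.091, SE 0.35, edgeR adjusted p = 0.898).

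*Foxf1*, a forkhead factor of splanchnic mesoderm, was at 3.63, 6.35 and 5.09 CPM in 2-DG and at 2.15, 7.10 and 6.48 CPM in 1× glucose, in passages 13, 15 and 16. It was 1.69 times the 1× glucose level in passage 13 and 0.894 and 0.785 times that level in passages 15 and 16. *Isl1*, a LIM homeodomain factor of the second heart field and of motor neurons, was at 2.81, 5.75 and 5.51 CPM in 2-DG and at 1.82, 5.74 and 6.74 CPM in 1× glucose. Its ratios were 1.54, 1.002 and 0.818, in the same order of passages. Neither gene differed detectably, with a log2 fold change of -0.060 (SE 0.53, edgeR adjusted p = 0.958) for *Foxf1* and -0.021 (SE 0.56, adjusted p = 0.987) for *Isl1*. With the block these were 0.061 (SE 0.18, adjusted p = 0.818) and 0.081 (SE 0.15, adjusted p = 0.710).

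For both genes the 2-DG ratio was highest in passage 13. The 2-DG effect in passage 13, less that in passages 15 and 16, was 1.01 on the log2 scale for *Foxf1* (edgeR adjusted p = 0.0452) and 0.76 for *Isl1* (adjusted p = 0.262), a test added after these ratios were seen, so that it is no independent evidence of the difference. Over all genes 1.77% were called by it. Passage 13 has 1 library a group, so the spread in this test comes from passages 15 and 16. Against 0× glucose and with passage 13 left out, *Foxf1* and *Isl1* were lower in 2-DG with the block, by log2 fold changes of -0.46 (SE 0.11, edgeR adjusted p = 0.0106) and -0.44 (SE 0.14, adjusted p = 0.0348). With all passages and the block, the same comparison gave adjusted p = 0.378 and 0.106. The blocked fit without passage 13 called 6058 of 17036 genes, 3023 of them lower in 2-DG, and was added after the data were seen.

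**Figure D3:**
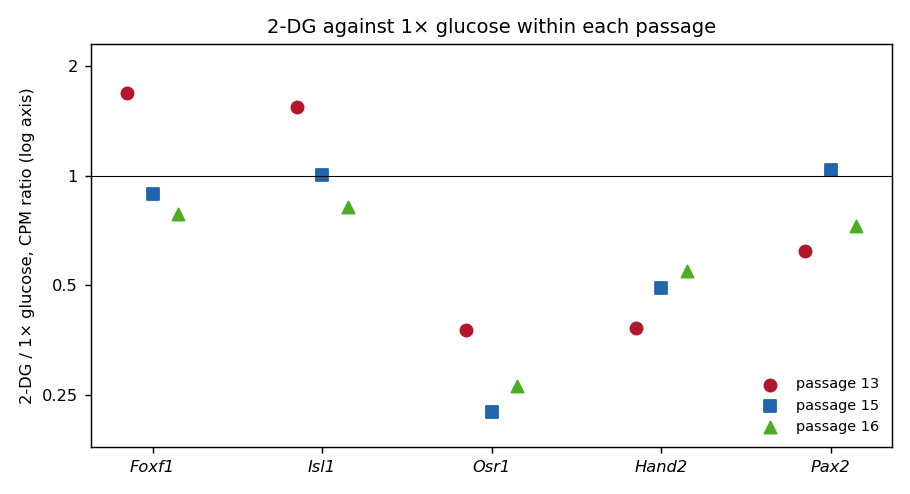
Ratio of the 2-DG to the 1× glucose level (CPM, log axis) for 5 genes, a marker for each passage, with a line at 1. *Osr1* and *Hand2* lie below 1 in all 3 passages, at 0.225 to 0.376 and 0.381 to 0.548, and *Foxf1* and *Isl1* lie above 1 in passage 13 and below or near 1 in passages 15 and 16.

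Glucose removal and excess were compared with the same 1× glucose libraries, which all these comparisons share. *Foxf1* was at 2.97, 8.12 and 7.55 CPM in 0× glucose and 1.89, 5.91 and 5.55 CPM in 3× glucose, in passages 13, 15 and 16. *Isl1* was at 3.00, 6.42 and 9.03 CPM in 0× glucose and 1.77, 4.91 and 5.58 CPM in 3× glucose. With *Osr1*, these genes were above the 1× glucose library of their passage in 0× glucose and below it in 3× glucose, in 3 of 3 passages each. No other tested member did both in 3 of 3 passages. In 3× glucose *Hand1* and *Pax2* were above 1× glucose in 3 of 3 passages, *Hand2* was above it in 2, and *Tbx5* was below it in 3. Of 15 tested presomitic and paraxial mesoderm genes, 12 were higher in 0× glucose and 12 lower in 3× glucose, with 0 called. The share of all genes with such a pattern was not counted. The log2 fold changes in 0× glucose were 0.25 (SE 0.53) for *Foxf1*, 0.37 (SE 0.56) for *Isl1* and 0.41 (SE 0.84) for *Osr1*. In 3× glucose they were -0.23 (SE 0.53), -0.22 (SE 0.56) and -0.36 (SE 0.85). Without passage in the model these differences were smaller than their errors. With the block they were 0.28 (SE 0.18), 0.41 (SE 0.15) and 0.43 (SE 0.17) in 0× glucose for *Foxf1*, *Isl1* and *Osr1*, with edgeR adjusted p of 0.652, 0.451 and 0.488. In 3× glucose they were -0.22 (SE 0.18), -0.19 (SE 0.15) and -0.44 (SE 0.18), with edgeR adjusted p of 0.918, 0.916 and 0.905. The unadjusted p of the blocked edgeR fit was 0.0204 for *Isl1* and 0.0305 for *Osr1* in 0× glucose and 0.0308 for *Osr1* in 3× glucose, and no member was called with or without the block.

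Of 7 genes tested in 0× glucose, 0 were called by edgeR or DESeq2, where edgeR called 0.0118% of all genes and DESeq2 called 12 of 16966. None had an unadjusted p under 0.05 without the block, as 1.8% of all genes did. In 3× glucose 0 of 7 were called, 0 had an unadjusted p under 0.05 without the block, and 0% of all genes were called by edgeR (178 genes, or 1.05%, with an unadjusted p under 0.05, and 2 by DESeq2). The block called 0 members in either comparison, and 0.0177% and 0% of all genes, with adjusted p of 0.451 or more in 0× glucose and 0.905 or more in 3× glucose. *Pax2* was at 3.38, 2.54 and 4.16 CPM in 0× glucose and 3.92, 2.62 and 4.33 CPM in 3× glucose, with log2 fold changes of -0.047 (SE 0.26) and 0.064 (SE 0.26). *Hand1* and *Tbx5* reached at most 0.442 and 0.678 CPM in these groups. Their log2 fold changes were 0.78 (SE 0.42) and 0.29 (SE 0.35) in 0× glucose, and 0.41 (SE 0.42) and -0.61 (SE 0.37) in 3× glucose. Those of *Hand2* were 0.50 (SE 0.51) in 0× glucose and 0.30 (SE 0.51) in 3× glucose.

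The passages were compared with treatment in the model, to ask how far these genes varied with the passage. The 4 libraries of a passage are its 4 treatments, so their SDs include treatment differences. The p-values measure the spread between libraries, not that between passages. Of the regulators, 4 were lower in the 4 libraries of passage 13 than in the 8 of passages 15 and 16. *Osr1* averaged 0.735 ± 0.476 CPM (SD, n = 4) in passage 13, 3.12 ± 1.63 in passage 15 and 4.52 ± 2.44 in passage 16. It fell 5.13-fold in passage 13 (log2 fold change -2.36, SE 0.16, edgeR adjusted p = 2.5e-06). *Isl1* averaged 2.35 ± 0.64, 5.70 ± 0.62 and 6.72 ± 1.64 CPM and fell 2.66-fold (-1.41, SE 0.12, adjusted p = 1.1e-05). *Foxf1* averaged 2.66 ± 0.79, 6.87 ± 0.97 and 6.17 ± 1.09 CPM and fell 2.47-fold (-1.31, SE 0.15, adjusted p = 5.2e-05). For both *Foxf1* and *Isl1* the highest passage 13 library was below the lowest of the other passages.

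*Hand2* averaged 0.292 ± 0.201, 0.481 ± 0.176 and 0.663 ± 0.268 CPM in passages 13, 15 and 16, which overlapped. It fell 1.96-fold in passage 13 (log2 fold change -0.97, SE 0.28, edgeR adjusted p = 0.0164). The call held in 13 of 17 alternatives. It was lost with DESeq2 (adjusted p = 0.0513). With edgeR it was lost without the 3× glucose library of passage 13 (adjusted p = 0.0794) and without a treatment term (adjusted p = 0.13). The edgeR fit of each gene's most abundant transcript also lost it (adjusted p = 0.056), although *Hand2* has 1 listed transcript and so kept the same counts. *Hand1*, *Tbx5* and *Pax2* were not called, with log2 fold changes of 0.095 (SE 0.31), 0.12 (SE 0.28) and 0.064 (SE 0.10). In all, 4 of 7 members were called in passage 13, all of them lower, where 46.1% of all genes were called, 22.8% lower and 23.3% higher.

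Between passages 16 and 15, 1 of 7 members was called, where 4.2% of all genes were called and 2.19% called higher. *Pax2* averaged 2.54 ± 0.0712 CPM (SD, n = 4) in passage 15 and 3.94 ± 0.590 in passage 16, and every passage 16 library was above every passage 15 library. It rose 1.54-fold (log2 fold change 0.62, SE 0.12, edgeR adjusted p = 0.0223), and the call held in 2 of 8 fits that each left out 1 library, with adjusted p of 0.0059 to 0.110. *Osr1* was 0.53 higher in passage 16 on the log2 scale (SE 0.15, adjusted p = 0.0728).

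**Figure D4:**
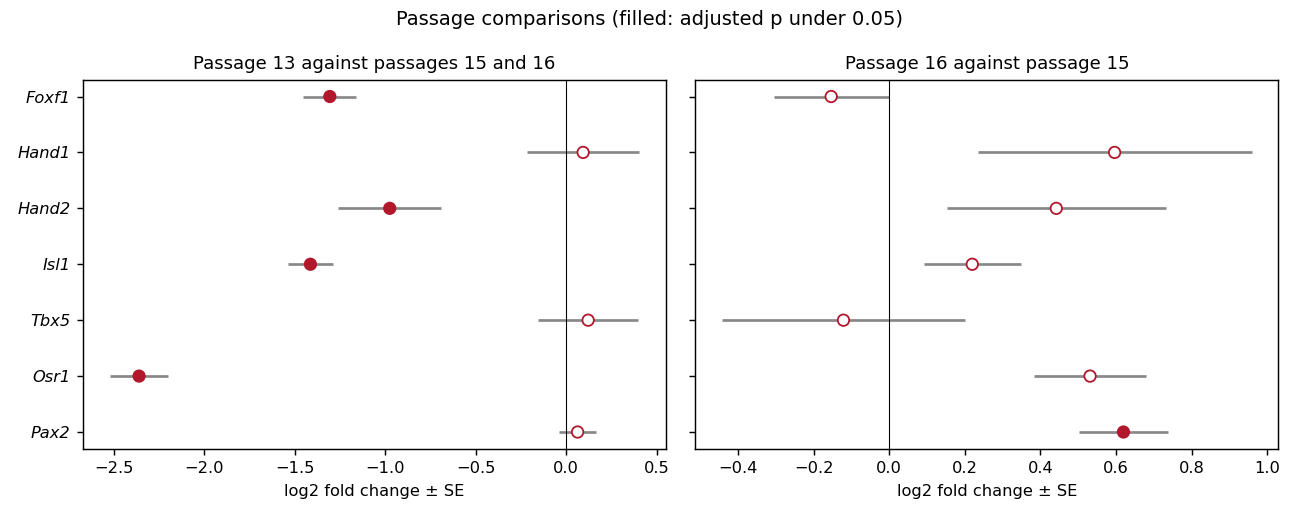
Log2 fold changes (points) with standard errors (bars) of the 7 tested genes for passage 13 against passages 15 and 16 (left) and passage 16 against passage 15 (right), with treatment in the model. Filled points passed adjusted p under 0.05, which *Foxf1*, *Hand2*, *Isl1* and *Osr1* did on the left and *Pax2* on the right.

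Other genes of the same tissues were counted from lists. Of 24 other lateral plate, splanchnic, limb and heart field genes 20 were tested, and 2 rose and 0 fell in 2-DG against 1× glucose (3 and 4 with the block), with a median log2 fold change of -0.18. Of all genes 9.12% rose and 8.51% fell in this comparison, and 21.1% and 20.2% with the block. *Tgfbi*, a matrix protein, rose by a log2 fold change of 2.12 (SE 0.35, edgeR adjusted p = 0.0028), from 3.25 ± 0.871 to 14.2 ± 5.16 CPM (SD, n = 3). *Prrx1*, a homeobox gene of limb mesenchyme, rose by 0.68 (SE 0.15, adjusted p = 0.0117). In passage 13, 12 of the 20 fell and 3 rose, with a median of -0.87 against 0.015 over all genes. The summed level of the list was 94.0 to 138 CPM in passage 13, and 199 to 314 CPM in passages 15 and 16.

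Of 20 other intermediate mesoderm and early kidney genes 17 were tested, and 3 rose and 1 fell in 2-DG against 1× glucose (5 and 1 with the block). *Wt1*, a zinc finger factor of kidney and coelomic epithelium, rose by a log2 fold change of 1.57 (SE 0.46, edgeR adjusted p = 0.0377), and *Ret*, the receptor of the ureteric bud for GDNF, by 0.50 (SE 0.14, adjusted p = 0.0358). *Sall1*, a zinc finger factor of nephron progenitors, fell from 396 ± 80.0 to 248 ± 63.1 CPM (SD, n = 3), by a log2 fold change of -0.68 (SE 0.21, adjusted p = 0.0493). In passage 13, 9 of the 17 fell and 1 rose, with a median of -0.49. No gene of either list was called in 0× or 3× glucose. Both lists held genes that rose in 2-DG, where *Osr1* fell with the block.

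Of 20 genes of the BMP pathway 19 were tested, and 1 rose and 4 fell in 2-DG against 1× glucose (4 and 7 with the block). *Bmp2*, a ligand, fell from 4.08 ± 1.79 to 1.17 ± 0.658 CPM (SD, n = 3; log2 fold change -1.80, SE 0.43, edgeR adjusted p = 0.0176). Of the antagonists, *Nog* fell from 1.70 ± 0.335 to 0.382 ± 0.202 CPM (-2.14, SE 0.39, adjusted p = 0.0051), *Fst* fell by 0.64 (SE 0.19, adjusted p = 0.0437) and *Chrd* rose by 0.79 (SE 0.19, adjusted p = 0.0189). The members of the pathway that moved included both a ligand and its antagonists. The list summed to 433 to 511 CPM in all libraries.

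Genes of other tissues in which the regulators are also known were counted beside them. Of 10 definitive endoderm genes, where *Isl1* and *Osr1* can also be active, 2 fell and 0 rose in 2-DG (5 and 3 with the block). The fallers were *Trh* (-1.26, SE 0.36, edgeR adjusted p = 0.0366) and *Cxcr4* (-0.88, SE 0.13, adjusted p = 0.0019). The list summed to 72.7 to 131 CPM in 2-DG and 98.5 to 264 CPM in 1× glucose. Of 12 endothelial and blood genes 8 were tested and 2 fell (5 fell and 0 rose with the block), *Lmo2* (-2.62, SE 0.36, adjusted p = 0.0011) and *Etv2* (-1.52, SE 0.40, adjusted p = 0.0254). This list summed to 6.94 to 16.2 CPM in 2-DG and 52.1 to 67.2 CPM in 1× glucose, with the globin genes *Hbb-y* and *Hba-x* at 0 in every library. The part of either tissue in the *Osr1* and *Hand2* values was not tested.

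Of 10 spinal motor neuron and sensory neuron genes, where *Isl1* is also active, 6 were tested and 2 rose in 2-DG (2 rose and 0 fell with the block). The other 4 had log2 fold changes below 0 against 1× glucose without being called, and the median of the 6 was -0.22. *Tubb3*, a neuronal tubulin, rose by 1.40 (SE 0.22, edgeR adjusted p = 0.0023) and *Neurog2*, a proneural factor, by 1.69 (SE 0.39, adjusted p = 0.0145). The list summed to 38.5 to 49.3 CPM in 2-DG and 27.8 to 44.3 CPM in 1× glucose. Of 12 trophoblast, amnion and extraembryonic mesoderm genes, the other known sites of *Hand1*, 10 were tested and 4 rose (5 rose and 1 fell with the block), *Tfap2c* (1.58), *Ahnak* (1.55), *Krt18* (0.87) and *Vim* (0.45). Of 16 presomitic and paraxial mesoderm genes 15 were tested and 1, *Hes7*, fell in 2-DG (-0.74, SE 0.14, edgeR adjusted p = 0.0051). With the block 5 of the 15 fell and 1 rose. In passage 13, 13 of the 15 fell, with a median of -1.70, in the libraries in which *Foxf1*, *Isl1* and *Osr1* were also low. The presomitic list summed to 1388 to 1710 CPM there and 2191 to 3140 CPM in passages 15 and 16, and its part in the member values was not tested.

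RefSeq genes within 10 kb of the members were read from the same tables, since the strand setting of the counting is not given in the sources used here. *Mthfsd*, a protein-coding gene 3474 bases from *Foxf1*, had 1591 to 2912 counts a library. *Fendrr*, a long noncoding RNA gene beside *Foxf1*, lies 1276 bases away and had 0 to 28 counts a library. Its log2 fold change was 0.53 in 2-DG against 1× glucose (edgeR adjusted p = 0.697) and -0.95 in passage 13 (adjusted p = 0.103). *A830082K12Rik*, a long noncoding RNA gene on the same list that is not within 10 kb of any member, was lower in passage 13 (log2 fold change -2.51, SE 0.89, edgeR adjusted p = 0.0399) with 0 to 27 counts a library. *Hand2os1*, 124 bases from *Hand2*, had 0 counts in all 12 libraries, which allows up to 3 in each. *Gm32915*, which overlaps *Hand1*, had 0 to 11 counts a library and 63 in all, beside 129 for *Hand1*. *Gm13415*, which overlaps *Pax8*, had 6 counts in all. *1700039E22Rik*, which overlaps *Pax2*, had 17 counts in all, and *Gm40268*, 466 bases from *Osr1*, had 23.

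Likeness over the 12 libraries was described by Pearson's r of log2(CPM + 0.5), among 11969 genes with a mean of at least 100 counts. *Foxf1* and *Isl1* were alike (r = 0.962), and so were *Osr1* and *Hand2* (r = 0.895). With the passage means subtracted these were 0.915 and 0.852, whereas *Osr1* with *Foxf1* went from 0.780 to 0.432. The libraries share passages and depths, so these values describe the 12 libraries and carry no test. The genes most like *Foxf1* were *Meis1* (0.993), *Ptges* (0.989) and *Prkch* (0.989), those most like *Isl1* were *Sema4g* (0.984), *H1f10* (0.982) and *St6galnac4* (0.981), and those most like *Osr1* were *Prdm6* (0.984), *Ccdc80* (0.982) and *Kcnk3* (0.981). *Hand2* was closest to *Fkbp4* (0.929), *Dhps* (0.920) and *Hmces* (0.913), and *Pax2* to *Acad12* (0.946), *Shisa5* (0.925) and *Nup133* (0.925). *Hand1* and *Tbx5* had no gene above 0.822, that of *Camk4* for *Hand1*, and for *Tbx5* the highest was 0.805 for *Snrpa*.

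**Figure D5:**
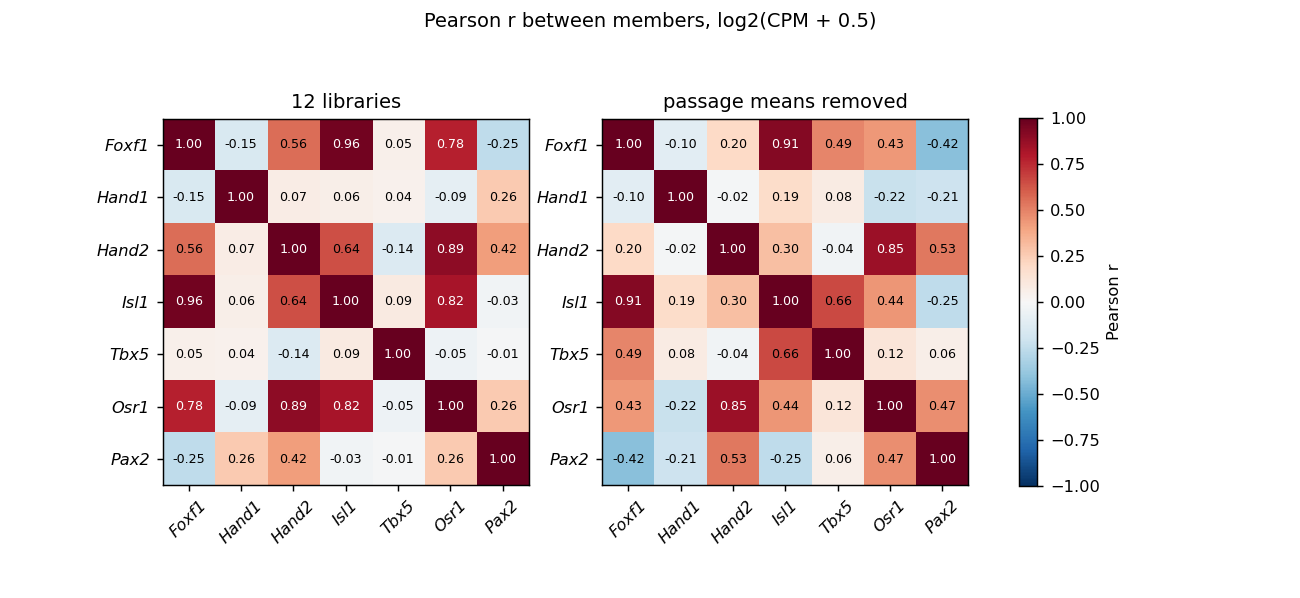
Pearson's r between the 7 tested members over the 12 libraries (log2(CPM + 0.5)), from the levels as they are (left) and with passage means subtracted (right), on a color scale from -1 to 1. *Foxf1* with *Isl1* and *Osr1* with *Hand2* stay above 0.85 in both panels, and *Hand1* has no value above 0.26 on either side.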

How the data were processed

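PolyA RNA of 12 day 4 gastruloid libraries was sequenced, 3 in each of 4 groups. The authors deposited estimated counts for 120312 RefSeq transcripts per library, made with StringTie and all whole numbers. The submitters' processing notes name Trim Galore, HISAT2, SAMtools, Picard and StringTie with build mm10. Versions, annotation and strand setting are not given in the sources used here. The authors' DESeq2 tables of fold changes and p-values for their comparisons were not used. Transcripts were matched by accession to GRCm38.p6 RefSeq genes, and the counts summed over each gene's transcripts.

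Genes passing filterByExpr were fitted over all 12 libraries by the quasi-likelihood test of edgeR 4.0.16 after TMM scaling, under R 4.3.3, with group for treatments and group plus passage for passages. Tests were two-sided and Benjamini-Hochberg adjusted over 16966 genes, with a threshold of 0.05. Standard errors came from the F statistic. p-values measure the spread between these libraries. An exact permutation test of 3 against 3 cannot go below 0.1.

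The labels give each replicate its stem cell passage, which pairs libraries across groups. Deviations from group means correlated at 0.0963 to 0.623 in 18 same-passage pairs of different groups, and at -0.440 to 0.191 in 36 other pairs. At most 9.67% of transcript values were identical between 2 libraries.

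The alternatives tried were no filter, median-of-ratios size factors, DESeq2 1.42.0, the most abundant transcript alone, passage as a block, only the groups compared, no treatment term, and leaving out each library. Leaving out passage 13, its interaction with 2-DG and the removal of passage means were added after the data were seen. The scripts were tested on simulated data with no passage effect, in which only genes with a mean of at least 100 counts changed. The members and gene lists were chosen with earlier results of these data known. Named are all members and up to 4 called genes of each list with the largest 2-DG change. Also named are some noncoding and coding neighbours, and the 3 genes most like each member. Single results for some listed genes are not reported here.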

Additional observations from a re-analysis of the deposited data

Results flagged for a closer look

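The ratio of 2-DG to 1× glucose for *Foxf1* lay above 1 in passage 13 and below 1 in the other passages. On the log2 scale the 2-DG effect was 1.01 higher in passage 13 than in passages 15 and 16 (edgeR interaction test over 12 libraries, adjusted p = 0.0452). *Foxf1* was 1.69 times its 1× glucose level in passage 13, and 0.894 and 0.785 times in passages 15 and 16. With 1 library a group in passage 13, the value rests on 124 and 98 counts there. The test was added after these opposite ratios were seen, so it restates them and is no independent evidence. The cause was not tested.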

How the results depend on the processing

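Each group had 3 libraries and most members few counts, which limits what could be seen. Of 595 values of single members under the alternatives, 525 kept their direction and side of the threshold, 47 changed sign, 12 gained a call and 11 lost one. None that was called changed sign.

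With passage as a replicate block, 7001 genes were called in 2-DG against 1× glucose and 7305 in 2-DG against 0× glucose. The block called 1 and 2 members there, where 0 were called without it, and it changed no other call of a member. It gave log2 fold changes of 0.061 for *Foxf1* and 0.081 for *Isl1* in 2-DG against 1× glucose. With passage 13 left out, 1 member was called in 2-DG against 1× glucose and 2 against 0× glucose, where 3417 and 3850 of 17036 genes were called. With the block as well the members called were 1 and 4, and genes called were 5638 and 6058 of 17036, with 5 in 0× and 1 in 3× glucose. *Hand1* in 2-DG against 0× glucose was then 0.29, and 0.28 with the block, and *Pax2* in 0× glucose 3.2e-04 and 0.012.

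The most abundant transcript alone called 653 genes in 2-DG against 1× glucose, 775 against 0× glucose, 2 in 3× glucose, 2570 in passage 13 and 8 in passage 16 against 15, with 0 members in the last. It turned *Tbx5* to -0.86 in 2-DG against 1× glucose, -0.38 in 0× glucose and 0.080 in passage 16, and *Pax2* to 2.05 in 2-DG against 1× glucose, 4.68 against 0× glucose and -0.71 in passage 16. DESeq2 called 12 genes in 0× and 2 in 3× glucose, and 1 member among 3866 genes in 2-DG against 0× glucose. The fit of only 2 groups called 1896 genes in 2-DG against 1× glucose and 0 in 0× glucose, and *Hand1* was not tested in it against 1× glucose. Without a treatment term 4230 genes were called in passage 13 and 9 in passage 16, with 0 members in the latter. Without the filter 326 genes were called in passage 16. Some fits had fewer libraries, and causes were not tested.

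Leaving out 1 library at a time called 1734 to 2352 genes in 2-DG against 1× glucose, 2051 to 2619 against 0× glucose, 1 to 3 in 0× glucose, and 76 to 745 genes and 0 to 1 members in passage 16. The log2 fold changes that changed sign ranged as follows. In 2-DG against 1× glucose *Foxf1* was -0.43 to 0.21, *Isl1* -0.41 to 0.32 and *Tbx5* -0.28 to 0.35. Against 0× glucose *Hand1* was -0.57 to 0.12 and *Tbx5* -0.57 to 0.070. In 0× glucose *Foxf1* was -0.13 to 0.58, *Isl1* -0.023 to 0.71, *Osr1* -0.15 to 0.87 and *Pax2* -0.25 to 0.11. In 3× glucose *Foxf1* was -0.61 to 0.13, *Hand2* -0.14 to 0.72, *Isl1* -0.61 to 0.14, *Osr1* -0.99 to 0.14 and *Pax2* -0.14 to 0.24. In passage 13 *Hand1* was -0.062 to 0.35 and *Tbx5* -0.013 to 0.32, and in passage 16 *Tbx5* was -0.34 to 0.24.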
